A study of Mus musculus with 16 samples.

Results

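The inflammasome and pyroptosis genes described here are 8 mouse genes, matched by symbol to the Ensembl identifiers of a table of read counts over 55487 genes. All 8 passed the filter on low counts, as did 12372 genes in all. RNA-sequencing was performed on bone marrow-derived macrophages (BMDMs), macrophages grown from the marrow of wild-type Balb/c mice aged 8 weeks. The cells were kept in DMEM, the medium without tumor factors, or treated with conditioned media (CM) of 4T1 cells, a mouse mammary tumor cell line. Groups with ruxolitinib (Rux) received this inhibitor of the kinases JAK1 and JAK2, at 0.5 μM in CM, and 1 group also received 0.8 μM IKK-16, an inhibitor of the IKK kinases that activate NF-κB. Of the 6 groups, DMEM and CM + Rux 2 h hold 2 libraries each, and CM, CM + Rux 4 h, DMEM + Rux and CM + Rux + IKK-16 hold 3 each. The labels give no dose for Rux in DMEM and do not say what the 2 h and 4 h stand for, while the methods of the study describe 4 h of treatment before RNA was isolated. The other groups carry no time in their labels. By label, a difference in time between them and CM + Rux 2 h or 4 h cannot be told apart from the treatment. No group received IKK-16 without Rux and CM, so no value here belongs to IKK-16 alone. The methods describe serum starvation before CM, without naming the DMEM groups.

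An inflammasome is a protein complex that forms in the cytosol when a sensor protein detects microbial products or cell damage. The sensor recruits the adaptor ASC, which activates caspase-1, and caspase-1 matures the cytokines IL-1β and IL-18 and cuts gasdermin D, whose fragments form pores in the plasma membrane. Death by such pores is called pyroptosis. In macrophages the pathway is usually primed first, when Toll-like or cytokine receptors signal through NF-κB and raise the RNA of some components, above all of Nlrp3 and Il1b. RNA levels say nothing of whether a complex assembled or a caspase was cut.

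Among the 8 genes, 4 encode sensors. Nlrp3 (ENSMUSG00000032691, chr11:59541568-59566956) encodes the sensor of ion fluxes and membrane damage, and Nlrp1b (ENSMUSG00000070390, chr11:71153102-71230733) a sensor that microbial proteases such as anthrax lethal factor activate. Nlrc4 (ENSMUSG00000039193, chr17:74425438-74459142) acts with NAIP proteins on flagellin and bacterial secretion needles. Mefv (ENSMUSG00000022534, chr16:3707218-3718097) encodes the sensor pyrin. Pycard (ENSMUSG00000030793, chr7:127989708-127993867) encodes the adaptor ASC. Casp1 (ENSMUSG00000025888, chr9:5298508-5307290) encodes the inflammatory caspase of these complexes. Casp4 (ENSMUSG00000033538, chr9:5308828-5336783), its neighbour on the same strand, encodes mouse caspase-11, the receptor of cytosolic lipopolysaccharide. Gsdmd (ENSMUSG00000022575, chr15:75862327-75867408) encodes the pore protein gasdermin D. Positions are those of the deposited table in build GRCm38. Fragments with several alignments were left out of the counts, so the level of Nlrp1b, which has close paralogs and differs between mouse strains, is uncertain. Exons of Pycard overlap the antisense gene Gm45205 by 485 bases, and the counting used strand.

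The promoters of 7 of the genes, from 250 bases before to 50 bases after a RefSeq start site (GRCm38.p6), were searched on both strands for letters that factors downstream of the inhibited kinases recognise. These were the NF-κB consensus, TTCNNNGAA, the element of STAT dimers, and the interferon-stimulated response element (ISRE). Some genes have more than 1 start site, which gave 10 promoters. The promoters shown are those of Casp4 and Nlrp3, the members with a match, of Pycard, which was called lower together with Casp4 when IKK-16 was added, and of Nlrp1b, which changed in the other direction. Capitals mark matches to the NF-κB consensus, and all sequences read 5′ to 3′ on the strand of the gene.
Casp4, chr9:5308599-5308898, plus strand: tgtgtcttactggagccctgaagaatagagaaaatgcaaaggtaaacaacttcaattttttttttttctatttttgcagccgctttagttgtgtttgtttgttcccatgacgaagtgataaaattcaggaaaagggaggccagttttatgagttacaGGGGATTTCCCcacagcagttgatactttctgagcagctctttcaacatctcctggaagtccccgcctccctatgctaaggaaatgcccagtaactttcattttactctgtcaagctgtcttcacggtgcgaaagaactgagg
Nlrp3, chr11:59541319-59541618, plus strand: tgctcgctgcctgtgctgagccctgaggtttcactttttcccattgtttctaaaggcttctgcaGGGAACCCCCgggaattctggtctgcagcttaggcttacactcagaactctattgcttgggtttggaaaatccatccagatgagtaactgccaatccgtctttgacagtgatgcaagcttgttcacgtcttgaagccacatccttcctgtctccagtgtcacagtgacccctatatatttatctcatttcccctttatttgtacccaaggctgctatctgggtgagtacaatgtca
Pycard, chr7:127993818-127994117, minus strand: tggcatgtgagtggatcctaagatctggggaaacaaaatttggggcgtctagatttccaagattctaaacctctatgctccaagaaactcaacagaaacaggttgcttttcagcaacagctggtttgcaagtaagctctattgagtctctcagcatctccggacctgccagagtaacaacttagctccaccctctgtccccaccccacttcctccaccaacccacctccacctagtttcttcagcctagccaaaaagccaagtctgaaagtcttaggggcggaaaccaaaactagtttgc
Nlrp1b, chr11:71230684-71230983, minus strand: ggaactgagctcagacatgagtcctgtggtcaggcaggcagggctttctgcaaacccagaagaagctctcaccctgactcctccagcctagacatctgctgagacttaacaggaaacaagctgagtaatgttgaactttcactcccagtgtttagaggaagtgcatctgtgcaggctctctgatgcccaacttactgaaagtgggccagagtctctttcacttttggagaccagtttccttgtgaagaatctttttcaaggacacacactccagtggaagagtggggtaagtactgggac

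In Casp4, overlapping matches GGGGATTTCC and GGGATTTCCC begin at positions -93 and -92 from the start site, and they lie in both overlapping promoters listed for the gene. Nlrp3 has 1 match, GGGAACCCCC at position -186, read on the opposite strand, in the shown promoter and not in the one at its other start site. The NF-κB consensus was in 3 of the 10 promoters of members and in 4.51% of 32851 promoters of the same length. The 3 count the same stretch of Casp4 in both of its promoters. The STAT element was in 8.3% and the ISRE in 0.17% of all promoters, and no promoter of the members held either. A match is a run of letters and not a measured site, and a window without a match says nothing of more distant elements.

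Between 18449388 and 46215853 fragments were counted on genes per library. CPM are counts scaled to library totals that were adjusted by relative log expression (RLE). The labelled cell type was checked with marker lists. The 8 macrophage markers summed to between 40148 and 57183 CPM in each library, whereas 7 neutrophil markers reached at most 0.763 CPM, with Ly6g and Retnlg at 0. Epithelial markers, which tumor cells would carry, summed to 0.692 to 1.45 CPM in CM and 0 to 0.118 CPM in DMEM, with Krt14 at 0 in every library, and their part in the results was not tested. Of the macrophage sum, Lyz2 alone was at 28541 to 38036 CPM. Markers of T and NK cells were at 0.0270 CPM or below. B cell markers summed to 0.122 to 1.23 CPM over the libraries. Fibroblast markers summed to 3.50 to 11.4 CPM, and their part in the results was not tested. A gene was called when edgeR's quasi-likelihood test gave a Benjamini-Hochberg adjusted p under 0.05 over all 12372 genes and the log2 fold change was beyond 0.5 in either direction. Errors of log2 fold changes are standard errors (SE), derived from the fold change and the F statistic of that test. The intervals are built on these errors.

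To compare levels between genes, CPM was divided by the length of all exons of a gene. That length pools all annotated exons and can exceed that of the RNA present, which lowers the level per kb. For Pycard it was 3800 bases, nearly the whole span of the gene, so the place of Pycard in the order is uncertain. In CM, Nlrp3 had the highest level of the 8 genes, at 292.5 ± 48.2 CPM per kb (SD, n = 3). Gsdmd came next at 61.1 ± 3.23 CPM per kb. Casp1 at 27.0 and Casp4 at 24.5 CPM per kb followed, and their libraries overlapped. Pycard had 12.5, Nlrc4 7.69 and Mefv 6.35 CPM per kb, with overlap between Nlrc4 and Mefv, and Nlrp1b was lowest at 1.56 CPM per kb. In DMEM the order was another one. Gsdmd had the highest mean at 39.9 ± 2.67 CPM per kb (SD, n = 2), Casp1 followed at 33.9 and Nlrp3 at 31.1, whose libraries overlapped with those of both Casp1 and Gsdmd, and Mefv was lowest at 0.515 CPM per kb. With CM + Rux + IKK-16, Nlrp3 was again highest at 198.6 ± 37.2 CPM per kb (SD, n = 3) and Nlrc4 and Pycard overlapped. In that group Casp1 at 19.8 and Casp4 at 14.5 CPM per kb no longer overlapped.

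**Figure D1:**
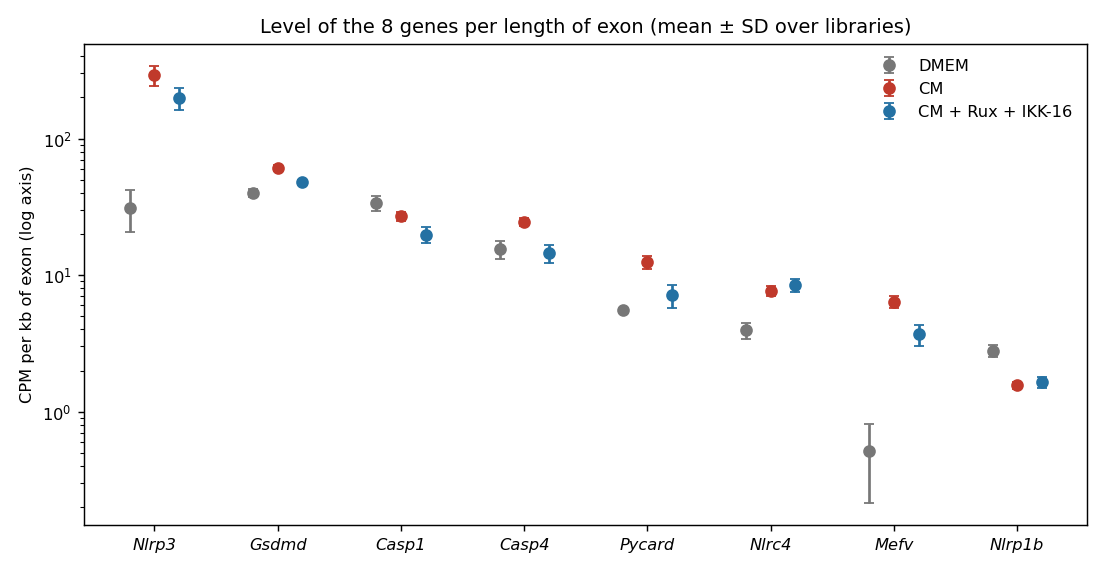
Level of each gene in DMEM, CM and CM + Rux + IKK-16, as CPM per kb of exon on a log axis; points are means and bars the SD over 2 libraries of DMEM and 3 of each other group. Nlrp3 rises from 31.1 to 292.5 CPM per kb between DMEM and CM, and Nlrp1b lies lowest in both groups with CM.

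The comparison of CM with DMEM asks how soluble tumor factors change the macrophages. With RLE scaling, 6 of the 8 genes rose and 1 fell, where 45.0% of all genes tested were called, 20.9% higher and 24.1% lower. Nlrp3 and Mefv rose most, 9.39-fold and 11.9-fold, and Pycard rose 2.27-fold, whereas the sensor gene Nlrp1b fell. The median log2 fold change was 0.81 over the 8 genes and -0.00496 over all genes. The libraries of both groups did not overlap for any of the 8 genes, as for 74.8% of all genes. In RNA of a whole culture, fewer cells of a type and less RNA per cell cannot be told apart.

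Among the sensor genes, Nlrp3 was at 157 and 96.0 CPM in the DMEM libraries and at 1122, 1407 and 1032 CPM in the CM libraries. Every CM library exceeded both DMEM libraries by several fold, and DMEM replicate 1 lay above replicate 2. The log2 fold change was 3.23 ± 0.23, with an adjusted p of 6.25e-08. Mefv was low without CM, at 2.36 and 0.982 CPM, and was at 20.5, 18.7 and 22.8 CPM with it. Its log2 fold change of 3.57 ± 0.39 had an adjusted p of 3.27e-06. Nlrc4 was at 20.8 and 17.1 CPM in DMEM and at 39.4, 37.8 and 33.7 CPM in CM, a log2 fold change of 0.96 ± 0.16 with an adjusted p of 0.000111. Nlrp1b went the other way. It was at 16.3 and 18.9 CPM in DMEM and at 9.62, 10.5 and 9.45 CPM in CM, and fell by 0.83 ± 0.12 on the log2 scale with an adjusted p of 4.98e-05.

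The adaptor and the effectors differed less. Pycard was at 21.0 CPM in each DMEM library and at 43.7, 53.6 and 45.7 CPM in CM, with a log2 fold change of 1.18 ± 0.17 and an adjusted p of 3.31e-05. Casp4 was at 63.8 and 51.4 CPM in DMEM and at 97.4, 86.5 and 88.5 CPM in CM. Gsdmd was at 99.4 and 90.5 CPM in DMEM and at 140, 141 and 154 CPM in CM. Both were called higher with RLE scaling, Casp4 with a log2 fold change of 0.65 ± 0.15 and Gsdmd with 0.61 ± 0.07, at adjusted p of 0.00148 and 4.80e-06. Casp1 was at 116 and 96.8 CPM in DMEM and at 90.6, 78.1 and 84.9 CPM in CM. The change was -0.33 ± 0.14 on the log2 scale, with an adjusted p of 0.0598 and a 95% interval of -0.64 to -0.02, and it was not called. Relative to scaling by total counts, RLE shifted the median gene by 0.31 on the log2 scale. With total counts, Casp4 was at 0.34 and Gsdmd at 0.30 and neither was called, while Casp1 at -0.64 was called lower with an adjusted p of 0.00398, so that 4 members rose and 2 fell. Over all genes, 46.4% of the calls were higher with RLE scaling and 25.0% with total counts.

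**Figure D2:**
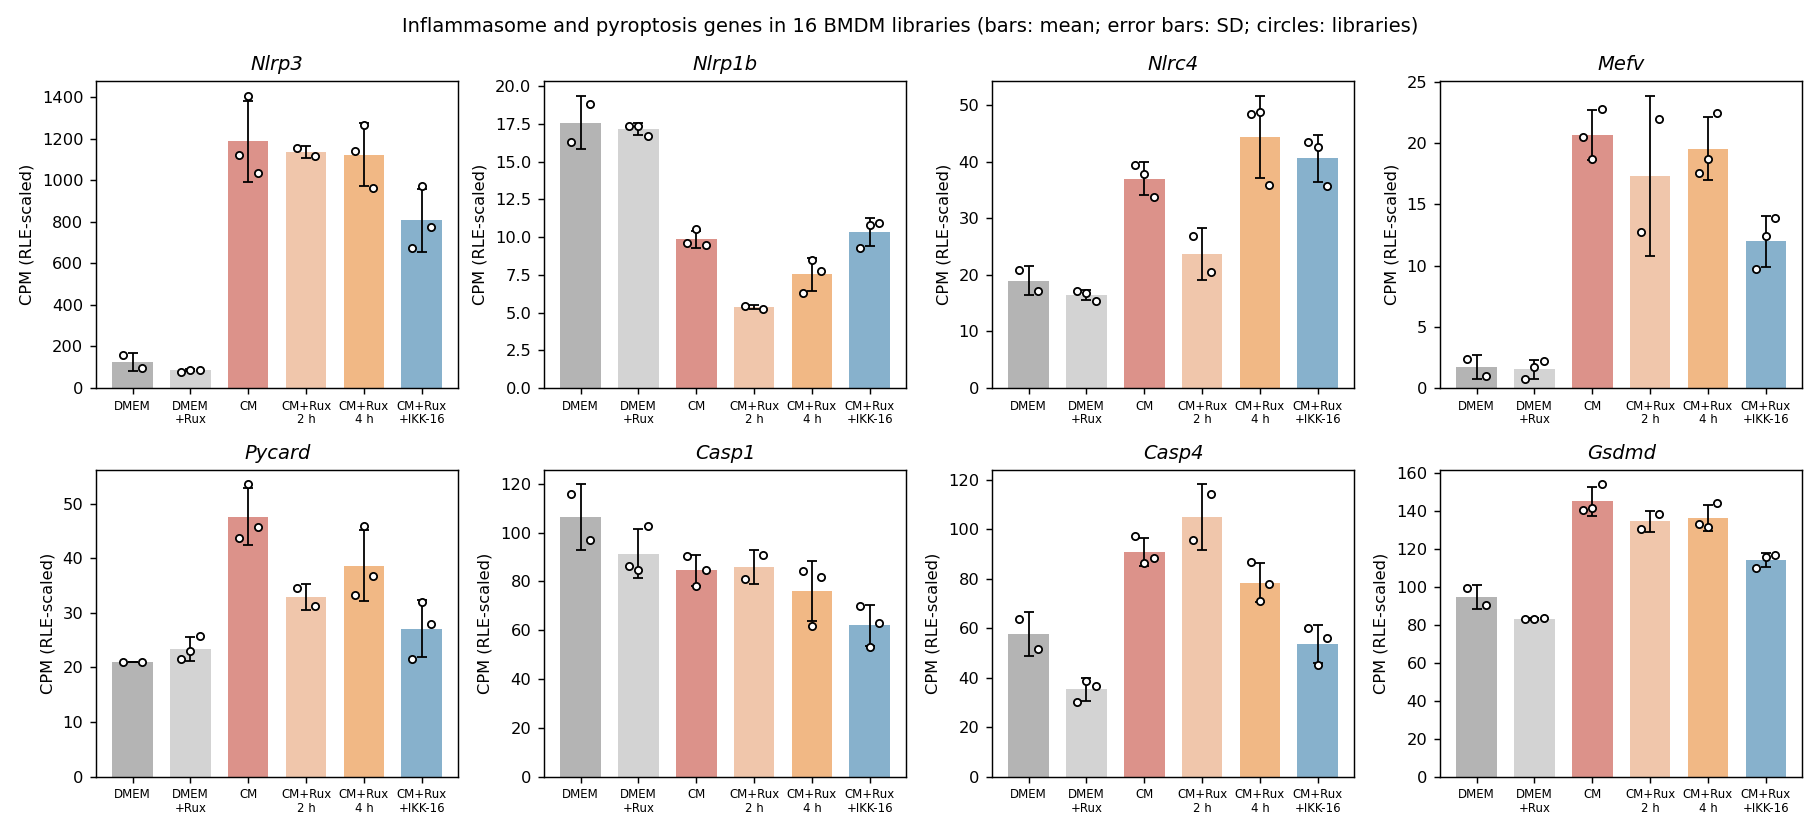
RLE-scaled CPM of the 8 genes in each of 16 libraries, by group; bars are means, error bars the SD over 2 or 3 libraries, circles the libraries, and each vertical axis starts at 0 with its own range. Nlrp3 and Mefv stand far above DMEM in all groups with CM, Nlrp1b lies below it, and Pycard, Casp4 and Mefv are lower with IKK-16 than in CM.

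The same comparison was made with ruxolitinib in both arms, CM + Rux 4 h against DMEM + Rux. Again 6 members rose and 1 fell, where 47.3% of all genes were called, 22.3% higher and 25.0% lower. As for 70.0% of all genes, the groups did not overlap for any member. Nlrp3 was at 78.9, 86.4 and 88.5 CPM in DMEM + Rux and at 1142, 1264 and 963 CPM in CM + Rux 4 h, with a log2 fold change of 3.73 ± 0.20 and an adjusted p of 2.53e-09. Mefv was at 0.693, 1.67 and 2.23 CPM against 17.5, 18.7 and 22.4 CPM, with a log2 fold change of 3.61 ± 0.33. Nlrc4 changed by 1.43 ± 0.14, Casp4 by 1.15 ± 0.13, Pycard by 0.72 ± 0.14 and Gsdmd by 0.72 ± 0.06 on the log2 scale, all called higher with RLE scaling. Nlrp1b fell by 1.19 ± 0.11 on the log2 scale. Casp1, with a log2 fold change of -0.27 ± 0.13 and an adjusted p of 0.0856, was not called. With the replicate number as a block it was at -0.28 and passed the adjusted p (0.00503), within the fold limit. RLE shifted the median gene by 0.30 here. With total counts, Pycard at 0.42 and Gsdmd at 0.42 lost their calls and Casp1 at -0.56 was called lower, and the share of higher calls over all genes went from 47.1% to 26.7%.

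Among 39 further genes of the pathway, chosen by role, 34 were tested, and in CM against DMEM 15 rose and 9 fell. All 3 cytokine genes had higher means in CM. Il1a was at 0.384 and 0.368 CPM in DMEM and at 1631, 2549 and 2410 CPM in CM, a log2 fold change of 12.49 ± 0.83 with an adjusted p of 3.90e-08. Il1b was at 182 and 62.0 CPM in DMEM and at 7254, 7498 and 6510 CPM in CM, a log2 fold change of 5.86 ± 0.50 with an adjusted p of 3.31e-07. The groups lay far apart for both genes, although the DMEM libraries of Il1b differed severalfold. Il18 stayed low, at 2.04 and 2.21 CPM in DMEM and 2.61, 2.73 and 4.20 CPM in CM, and was not called (adjusted p of 0.132). Il1rn, the gene of the IL-1 receptor antagonist, rose by 6.43 ± 0.32 on the log2 scale, as 1 of 3 genes in a list of 7 that restrain the pathway.

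Other sensors and pore genes moved in both directions. Of 9 other sensor genes, 6 were tested, with 1 called higher and 3 lower in CM against DMEM. Aim2, the sensor of cytosolic DNA, fell by 0.72 ± 0.12 and Nlrp10 by 2.61 ± 0.43 on the log2 scale. Of 6 other caspase or pore genes, 3 rose and 2 fell. Gsdme, the gene of a gasdermin that caspase-3 cuts, was at 7.24 and 6.88 CPM in DMEM and at 1.28, 1.10 and 0.733 CPM in CM, and fell by 2.78 ± 0.19 with an adjusted p of 4.51e-08. Ninj1, needed for rupture of the membrane after pore formation, rose by 0.97 ± 0.13. Panx1, a channel gene, fell by 1.25 ± 0.29, as 1 of 3 genes called lower among 11 that prime or partner the complexes, of which 5 rose. Irf8, a factor known to act on Naip and Nlrc4 genes, changed by 0.56 ± 0.11 and was called with RLE scaling and not with total counts (0.25). Irf2, a factor known to act on Gsdmd, changed by -0.48 ± 0.10, short of the fold limit with RLE scaling, and was called lower with total counts at -0.79.

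With ruxolitinib in both arms, 15 of the 34 genes rose and 10 fell. The largest increases were those of Il1a (13.13 ± 0.71), Gbp5 (7.67 ± 0.44), which encodes a guanylate-binding protein, and Il1b (6.75 ± 0.43) on the log2 scale. In DMEM + Rux, Il1a was at only 0.139 to 0.324 CPM and Gbp5 at 0.514 to 1.62 CPM, so the size of both changes is uncertain. Nlrp10, Gsdme and Txnip, the gene of a thioredoxin-binding partner of NLRP3, fell by 3.10 ± 0.40, 2.39 ± 0.16 and 1.17 ± 0.13. Here Il18 also rose, from 1.39, 1.94 and 2.40 CPM in DMEM + Rux to 5.15, 4.77 and 8.09 CPM in CM + Rux 4 h, a log2 fold change of 1.62 ± 0.28. Ninj1 rose by 1.24 ± 0.11, and Aim2 and Irf2 fell by 0.74 ± 0.11 and 0.64 ± 0.09. Irf8 was at -0.41 ± 0.10 and not called with RLE scaling, and at -0.71 and called lower with total counts.

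**Figure D3:**
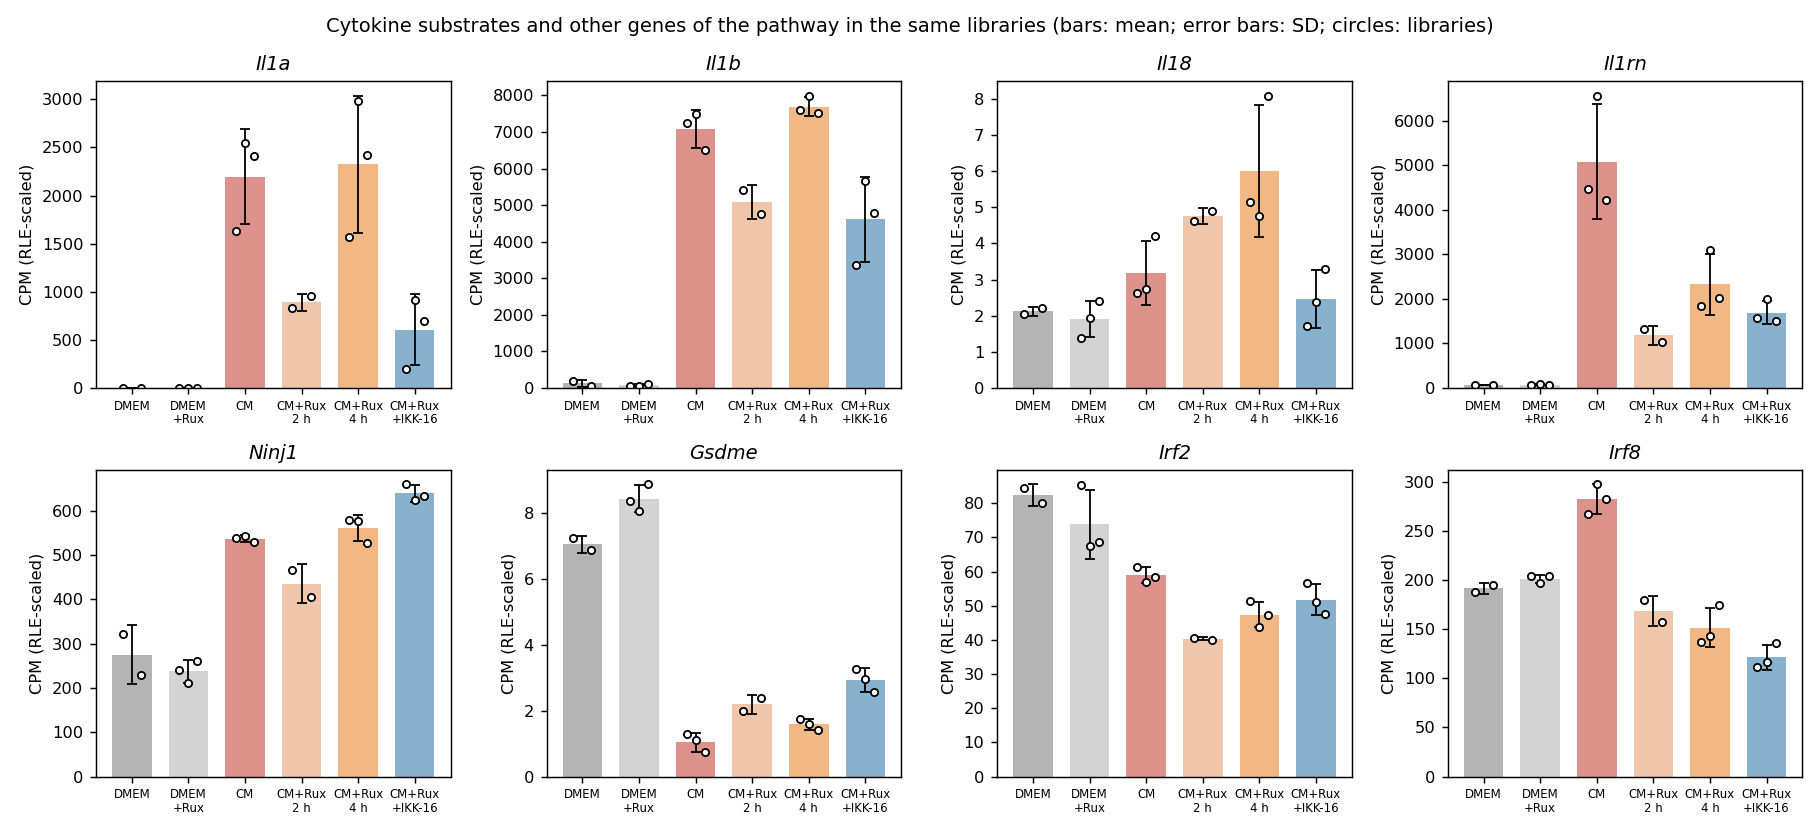
RLE-scaled CPM of 8 further genes of the pathway in the 16 libraries; bars are means, error bars the SD over 2 or 3 libraries, circles the libraries, and each vertical axis starts at 0 with its own range. Il1a and Il1b are high in all groups with CM, Gsdme is highest without CM, and Irf8 is highest in CM without Rux.

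The effect of JAK inhibition was asked by comparing CM + Rux 4 h with CM. None of the 8 genes was called by edgeR, where 3.33% of all genes were (1.20% higher and 2.13% lower), and DESeq2 also called 0. At an unadjusted p under 0.05 there was 1 gene, Nlrp1b, beside 15.3% of all genes. It was at 9.62, 10.5 and 9.45 CPM in CM and at 6.31, 8.48 and 7.79 CPM with ruxolitinib, without overlap, as for 19.2% of all genes. This gave a log2 fold change of -0.39 ± 0.11 and an adjusted p of 0.0728. For Nlrp3 the log2 fold change was -0.08 ± 0.18 with a 95% interval of -0.46 to 0.30, and for Mefv -0.08 ± 0.27 with an interval of -0.67 to 0.51. The interval was -0.02 to 0.55 for Nlrc4 and -0.61 to 0.0023 for Pycard, so changes of the size of the fold limit are within both. Casp1 had an interval of -0.44 to 0.13 and Casp4 of -0.49 to 0.06. That of Gsdmd was narrowest, at -0.22 to 0.04. Between same-numbered libraries, Nlrc4 was higher with ruxolitinib in 3 of 3 pairs, and Nlrp1b, Pycard, Casp1, Casp4 and Gsdmd were lower in 3 of 3, as all pairs went 1 way for 53.1% of all genes. With the replicate block, Nlrp1b (-0.39, adjusted p of 0.0125) and Nlrc4 (0.26, adjusted p of 0.0372) passed the adjusted p and not the fold limit.

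Of the 34 other pathway genes, 0 rose and 4 fell with ruxolitinib in CM. Trim30a, an interferon-inducible gene that restrains NLRP3, fell by 1.54 ± 0.17, Il1rn by 1.13 ± 0.21 and Tlr4, the gene of the lipopolysaccharide receptor, by 1.04 ± 0.12 on the log2 scale. In a model of only both groups Il1rn was not called (adjusted p of 0.0532). Irf8 was at 267, 297 and 282 CPM in CM and at 137, 143 and 174 CPM with ruxolitinib, and fell by 0.90 ± 0.10 with an adjusted p of 0.000118. Il1a had a log2 fold change of 0.08 ± 0.39, Il1b of 0.12 ± 0.33, Ninj1 of 0.06 ± 0.11 and Aim2 of -0.09 ± 0.11. Il18 at 0.90 ± 0.27 (adjusted p of 0.0882) and Gsdme at 0.64 ± 0.19 (adjusted p of 0.0783) were not called. With the replicate number as a block both were called higher, with adjusted p of 0.00102 and 0.0437. Il18 was also called higher with no filter on low counts (adjusted p of 0.0112) and with DESeq2 (0.0308). Irf2 was at -0.31 ± 0.09.

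Without tumor factors, DMEM + Rux was compared with DMEM. Casp4 fell, as 1 of 8 members, where 0.970% of all genes were called and all of these were lower. It was at 63.8 and 51.4 CPM in DMEM and at 30.2, 38.8 and 36.8 CPM with ruxolitinib, and the groups did not overlap. The log2 fold change was -0.71 ± 0.14, with an adjusted p of 0.0249. The call was lost without DMEM replicate 1 (-0.54, adjusted p of 0.508), without DMEM + Rux replicate 1 (-0.61, 0.122) or replicate 3 (-0.74, 0.0725), in a model of only both groups (-0.71, 0.115) and with scaling by total counts (-0.70, 0.0705). Nlrp3 was at 157 and 96.0 CPM in DMEM and at 78.9, 86.4 and 88.5 CPM with ruxolitinib. Its log2 fold change of -0.58 ± 0.20 had an adjusted p of 0.505, and with no filter on low counts it was called at 0.0300. With a library left out, the log2 fold change of Nlrp3 ranged from -0.89 to -0.18 and was not called. Gsdmd, at 82.9, 83.0 and 83.5 CPM against 99.4 and 90.5 CPM, had a log2 fold change of -0.19 ± 0.07 and an adjusted p of 0.609. Of all genes, 18.5% did not overlap between these groups.

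For the other members the 95% interval of the log2 fold change was -0.30 to 0.22 for Nlrp1b, -0.54 to 0.12 for Nlrc4 and -1.01 to 0.77 for Mefv. It was -0.19 to 0.51 for Pycard and -0.53 to 0.09 for Casp1. These include a change of the fold limit for all but Nlrp1b. Of the other pathway genes, 2 fell, Gbp5 by 3.31 ± 0.47 and Trim30a by 1.47 ± 0.18. DMEM replicate 1 exceeded replicate 2 also in Gbp5, at 11.7 against 6.79 CPM, and in Il1b, and the part of this library in the result was not tested beyond leaving it out. Without DMEM replicate 1, Il1b went from -0.77 ± 0.37 to 0.21. Il1a was at -0.55 ± 1.23, Il18 at -0.13 ± 0.33, Aim2 at -0.06 ± 0.12, Gsdme at 0.25 ± 0.16, Ninj1 at -0.21 ± 0.12, Irf2 at -0.16 ± 0.10 and Irf8 at 0.07 ± 0.11, and none of these was called.

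An interaction term tested whether the ruxolitinib response depended on the medium. None of the 8 members was called by edgeR, where 0.412% of all genes were (0.234% higher and 0.178% lower), and DESeq2 also called 0. At an unadjusted p under 0.05 there were 2 members, beside 9.08% of all genes. Casp4 had a difference of 0.50 ± 0.19 (adjusted p of 0.392) and Nlrc4 of 0.48 ± 0.20 (adjusted p of 0.480) on the log2 scale. Nlrp3, with 0.50 ± 0.27, had an adjusted p of 0.652. The fall of Casp4 in DMEM was thus not shown to differ from its log2 fold change of -0.21 ± 0.13 in CM.

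Blocking the IKK kinases was examined by adding IKK-16 to CM + Rux. Here 2 of the 8 members fell with RLE scaling, Pycard and Casp4, where 7.74% of all genes were called, 3.66% lower and 4.07% higher. Pycard was at 33.4, 45.9 and 36.7 CPM in CM + Rux 4 h and at 21.5, 32.0 and 28.0 CPM with IKK-16, without overlap. The difference was -0.51 ± 0.14 on the log2 scale, with an adjusted p of 0.0274, at the edge of the fold limit. Casp4 was at 86.5, 70.8 and 77.9 CPM and with IKK-16 at 60.0, 44.9 and 56.0 CPM. Its log2 fold change was -0.55 ± 0.13, with an adjusted p of 0.0117. The median log2 fold change of the 8 members was -0.39, beside -0.00187 over all genes.

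Both calls depended on the processing and on single libraries. With total counts Pycard was at -0.43 and Casp4 at -0.46, so neither was called, while Nlrp1b at 0.55 was called higher, and the share of higher calls over all genes rose from 52.7% to 67.5%. Pycard also lost its call with TMM normalization (-0.50), in a model of only both groups (-0.50, adjusted p of 0.103), and without CM + Rux 4 h replicate 2 (-0.37) or CM + Rux + IKK-16 replicate 1 (-0.37) or 3 (-0.53). Casp4 lost its call without CM + Rux 4 h replicate 1 (-0.47) or CM + Rux + IKK-16 replicate 2 (-0.44).

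The sensor genes did not share 1 direction. Mefv was at 17.5, 18.7 and 22.4 CPM in CM + Rux 4 h and at 9.74, 12.4 and 13.9 CPM with IKK-16, without overlap. The log2 fold change was -0.70 ± 0.28, with an adjusted p of 0.109, and with the replicate number as a block it was -0.71 with an adjusted p of 0.0142 and was called. Mefv was also called lower with no filter on low counts (adjusted p of 0.0122) and in a model of only both groups (0.0341). Nlrp3 was at 673, 970 and 774 CPM with IKK-16, overlapping with 1142, 1264 and 963 CPM, and its log2 fold change of -0.48 ± 0.18 had an adjusted p of 0.0876. It was called lower without CM + Rux + IKK-16 replicate 2 (-0.63, adjusted p of 0.0401). With the replicate block Nlrp3 (-0.48, adjusted p of 0.0481) passed the adjusted p and not the fold limit. Nlrp1b was higher with IKK-16 in every library, at 9.28, 10.8 and 10.9 CPM. The value of 0.46 ± 0.11 on the log2 scale passed the adjusted p (0.0148) and not the fold limit, and without CM + Rux 4 h replicate 2 (0.56) or CM + Rux + IKK-16 replicate 1 (0.53), or scaled by total counts (0.55), it was called higher. Nlrc4 was at -0.13 ± 0.13, with a 95% interval of -0.41 to 0.15.

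The 2 remaining effectors had negative values. Gsdmd was at 133, 132 and 144 CPM without and at 110, 116 and 117 CPM with IKK-16. Its log2 fold change of -0.26 ± 0.06 passed the adjusted p (0.0128) and was within the fold limit. Casp1 was at 84.2, 61.8 and 81.9 CPM and with IKK-16 at 69.8, 53.2 and 62.9 CPM, with overlap and a log2 fold change of -0.29 ± 0.13 (adjusted p of 0.156). With the replicate block Casp1 (-0.29, adjusted p of 0.0135) passed the adjusted p and not the fold limit. In all, 5 of the 8 members did not overlap between the groups, as for 31.5% of all genes.

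Of the 34 other pathway genes, 2 rose and 4 fell when IKK-16 was added. Il1a was at 1565, 2984 and 2424 CPM in CM + Rux 4 h and at 198, 917 and 698 CPM with IKK-16, and fell by 1.94 ± 0.40 on the log2 scale (adjusted p of 0.00595, and 0.0577 in a model of only both groups). Il18 fell by 1.27 ± 0.27, to 1.70, 2.39 and 3.29 CPM, and Gbp5 by 2.18 ± 0.31. Il1b was at 7588, 7993 and 7505 CPM and with IKK-16 at 3354, 5670 and 4797 CPM, without overlap, and with a log2 fold change of -0.74 ± 0.34 and an adjusted p of 0.163 it was not called. With no filter on low counts (adjusted p of 0.0154) and in a model of only both groups (0.0456) it was called lower. Gsdme rose by 0.87 ± 0.17, from between 1.42 and 1.75 CPM to 3.27, 2.97 and 2.56 CPM, and Tlr4 rose by 0.68 ± 0.12. Irf8 was at -0.32 ± 0.10, Irf2 at 0.13 ± 0.09, Aim2 at 0.21 ± 0.11 and Ninj1 at 0.19 ± 0.11, and none of them was called.

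Against CM without inhibitors, 3 members fell with both inhibitors and RLE scaling, where 12.7% of all genes were called, 6.13% lower and 6.60% higher. This comparison shares its libraries with those above. Pycard fell by 0.82 ± 0.14 and Casp4 by 0.76 ± 0.13 on the log2 scale, with adjusted p of 0.00121 and 0.000960, and these calls held under every alternative run. Nlrp3 fell by 0.56 ± 0.18, with an adjusted p of 0.0352. It was not called in a model of only both groups (-0.55, adjusted p of 0.0511), with total counts (-0.45), without CM replicate 1 (-0.60) or 2 (-0.42), or without CM + Rux + IKK-16 replicate 1 (-0.45) or 3 (-0.53). Mefv, at -0.78 ± 0.28 with an adjusted p of 0.0560, was called with the replicate block at -0.79 and 0.00633. It was also called lower with DESeq2 (adjusted p of 0.0344), with no filter on low counts (0.00292) and in a model of only both groups (0.0113). Gsdmd at -0.35 ± 0.06 and Casp1 at -0.45 ± 0.13 passed the adjusted p, with 0.00130 and 0.0250, and stayed within the fold limit. Casp1 was called lower without CM replicate 2 (-0.50) or CM + Rux + IKK-16 replicate 1 (-0.54). Nlrp1b at 0.06 ± 0.11 and Nlrc4 at 0.13 ± 0.13 were not called, with 95% intervals of -0.18 to 0.31 and -0.15 to 0.42. Here 6 of the 8 members did not overlap between the groups, as for 37.9% of all genes, and RLE shifted the median gene by -0.11.

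Of the other pathway genes in this comparison, 1 rose and 8 fell. Gsdme rose by 1.51 ± 0.18. Il1a, Gbp5 and Trim30a fell by 1.86 ± 0.40, 1.76 ± 0.31 and 1.70 ± 0.17, and Irf8 by 1.22 ± 0.10 on the log2 scale. Il1b at -0.62 ± 0.34, Il18 at -0.38 ± 0.28, Irf2 at -0.19 ± 0.09, Ninj1 at 0.25 ± 0.11 and Aim2 at 0.12 ± 0.11 were not called. With no filter on low counts Il1b was called lower here too (adjusted p of 0.0401).

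**Figure D4:**
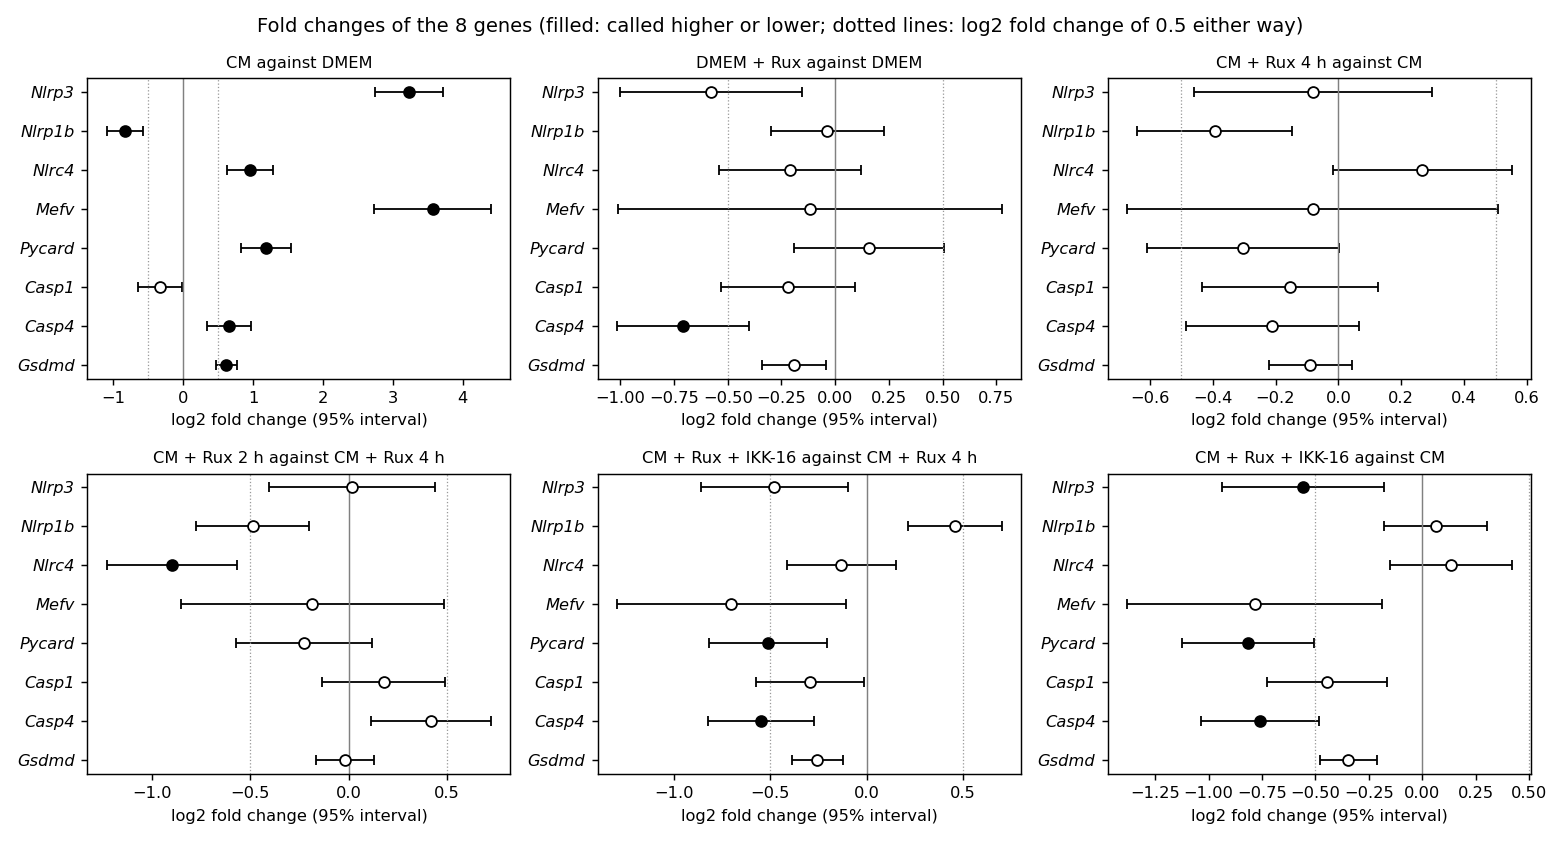
Log2 fold changes of the 8 genes in 6 comparisons, each panel with its own horizontal range; points are estimates, bars 95% intervals, filled points genes called higher or lower, and dotted lines the fold limit of 0.5. The changes of Nlrp3 and Mefv in CM exceed 3 on the log2 scale, and with IKK-16 the filled points are Pycard and Casp4, joined by Nlrp3 against CM.

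The groups labelled 2 h and 4 h of CM + Rux were also compared. In the 2 h group, which holds 2 libraries, Nlrc4 was the 1 member that was lower, where 23.3% of all genes were called, 10.7% lower and 12.6% higher. The groups did not overlap for it, Nlrp1b and Casp4, as for 59.6% of all genes. It was at 26.9 and 20.5 CPM in the 2 h libraries and at 48.3, 48.8 and 35.9 CPM in the 4 h libraries. The log2 fold change was -0.90 ± 0.15, with an adjusted p of 0.000496. Nlrp1b was at 5.44 and 5.26 CPM against 6.31, 8.48 and 7.79 CPM, with -0.49 ± 0.13, and Casp4 at 95.5 and 114 CPM against 86.5, 70.8 and 77.9 CPM, with 0.42 ± 0.14. Both passed the adjusted p, with 0.0110 and 0.0321, and stayed within the fold limit. Nlrp1b was called lower with total counts (-0.55) and without CM + Rux 4 h replicate 1 (-0.60), and Casp4 was called higher without CM + Rux 2 h replicate 2 (0.54).

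Nlrp3 was at 1156 and 1115 CPM in the 2 h libraries and overlapped with the 4 h libraries, with a 95% interval of -0.41 to 0.44 on the log2 scale. The intervals were -0.85 to 0.48 for Mefv, -0.58 to 0.12 for Pycard, -0.14 to 0.49 for Casp1 and -0.17 to 0.13 for Gsdmd. Of the 34 other pathway genes, 2 were higher and 5 lower in the 2 h group. Naip2, whose protein acts with NLRC4, was lower, at -1.45 ± 0.20 on the log2 scale, as were Il1a at -1.39 ± 0.45 and Pstpip1, the gene of a pyrin-binding protein, at -1.30 ± 0.22. The call of Il1a was lost without either 2 h library (-1.29 without replicate 2, -1.49 without replicate 3) and without CM + Rux 4 h replicate 2 (-1.17) or 3 (-1.35). Irf1 was higher by 1.42 ± 0.24 and Cflar, which encodes an inhibitor of caspase-8, by 0.56 ± 0.10. Cflar lost its call without CM + Rux 2 h replicate 3 (0.47) and with total counts (0.49). Il1b was at -0.60 ± 0.38, Il18 at -0.32 ± 0.30, Aim2 at 0.29 ± 0.12, Gsdme at 0.43 ± 0.20, Ninj1 at -0.37 ± 0.13, Irf2 at -0.23 ± 0.11 and Irf8 at 0.15 ± 0.11, and none of these was called. The dendritic cell marker sum was 8.53 to 12.7 CPM in the 2 h libraries and at most 2.28 CPM in all others. It was carried mostly by Zbtb46, with Siglech at most 0.552 CPM and Flt3 and Xcr1 at most 0.167 CPM. The part of this sum in these results was not tested.

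Over the 16 libraries, log2 CPM of the members followed different patterns. As a description, since all points share the conditions and libraries, Pearson's r was 0.97 between Nlrp3 and Mefv and 0.94 between Nlrp3 and Gsdmd. It was -0.86 between Nlrp3 and Nlrp1b. Casp1 and Casp4, neighbours on the chromosome, had an r of 0.05. The genes most like Nlrp3 were Socs3 and Pde4b, each with an r of 0.998. Those most like Mefv were Msantd3 (0.986) and Bcl2a1b (0.984), and those most like Nlrp1b were Elac1 (0.981) and A530017D24Rik (0.977). Nlrc4 was closest to Aldoa (0.973) and Psmb5 (0.971), Pycard to Ubash3b (0.971) and Slc9a3r1 (0.963), and Gsdmd to Tirap (0.988) and Col27a1 (0.987). For Casp4 the genes were Fbrs (0.951) and Psmb10 (0.945). Casp1 had the least close companions, Chst7 (0.869) and Tns2 (0.869).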

How the data were processed

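Per the submitters' processing notes, the methods of the study and the file headers, reads were trimmed with Trimmomatic 0.33, aligned to GRCm38 with HISAT2 2.1.0 and counted with featureCounts 1.6.2 on the Ensembl release 100 annotation. Fragments needed both ends mapped, reverse strand and a mapping quality of at least 10, and those with several alignments or genes were left out. The authors deposited whole-number counts without normalization. Symbols came from a table of gene identifiers in place of the Ensembl release, and matched 55141 of 55487 identifiers. The remaining 346 made up 0.0459% of any library's counts or less.

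Genes above 1 CPM in at least 2 libraries were kept, and counts were scaled by RLE and fitted with edgeR 4.0.16 (glmQLFit, glmQLFTest; limma 3.58.1, R 4.3.3) in 1 model of 6 groups and 16 libraries. The procedure was tested on simulated data. Intervals are at 95%. Replicates of a group differed by more than counting noise (chi-square over its degrees of freedom between 14.2 and 54.4). Nothing in the labels ties libraries to separate mice, so p-values measure the spread between these libraries, which may be technical. Alternatives were TMM, no filter, filterByExpr, DESeq2 1.42.0, a replicate block, a model of only the groups compared, an adjusted p under 0.1, no fold limit and each library left out. Same-numbered libraries deviated together: in all 4 comparisons with 3 pairs every pair correlated above 0.1 (0.172 to 0.631), so the labels' numbers were taken to pair the samples there. Unless the replicate block is named, errors, intervals and p-values ignore this pairing.

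Members, lists and tests were chosen with earlier results of these data known. The text names all 8 members and, of the pathway list, Il1a, Il1b, Il18, Aim2, Gsdme, Ninj1, Irf2, Irf8 and the 3 called genes with the largest change in each direction. For each member it also names the 2 genes with the highest correlation. The result for 1 item that this rule would add is not reported here. Other genes named were chosen after their values were seen. Python 3.11.15 with pandas 2.3.3 and matplotlib 3.10.9 did the rest.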

Additional observations from a re-analysis of the deposited data

Results flagged for a closer look

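The effect of ruxolitinib differed between CM and DMEM, by the interaction test, for 3 genes of the pathway list and for no member. Irf8 had a difference of -0.97 ± 0.14 on the log2 scale (adjusted p of 0.0118), with a log2 fold change of -0.90 ± 0.10 in CM and 0.07 ± 0.11 in DMEM. Tlr4 had a difference of -0.94 ± 0.18 (adjusted p of 0.0406), with -1.04 ± 0.12 in CM and -0.09 ± 0.13 in DMEM. Gbp5 had a difference of 3.72 ± 0.56 (adjusted p of 0.0118), with 0.42 ± 0.30 in CM and -3.31 ± 0.47 in DMEM. Gbp5 was at 11.7 and 6.79 CPM in DMEM and at 0.785, 0.514 and 1.62 CPM in DMEM + Rux, and at 153, 136 and 144 CPM in CM and 193, 166 and 220 CPM in CM + Rux 4 h. Without DMEM replicate 1 the calls of all 3 were lost, at -0.94 for Irf8 (adjusted p of 0.0688), -0.89 for Tlr4 (0.224) and 3.26 for Gbp5 (0.0907). That of Tlr4 was lost in 9 of 11 fits without 1 library, at -1.06 to -0.86 over all of them, and in a model of only the groups compared (adjusted p of 0.0646).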

How the results depend on the processing

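Over 25 alternatives, 907 of 976 refitted log2 fold changes of members kept their direction and side of the thresholds, 24 lost and 27 gained a call, and 18 changed sign, none of them called. Of 1291 refits of other pathway genes, 1240 were kept, 21 lost and 20 gained a call and 10 changed sign. Adding IKK-16 to CM + Rux gave 1 called member in place of 2 with TMM, 1 with total counts, a scaling chosen after seeing the data, 4 with no fold limit and 1 to 2 with a library left out. Ruxolitinib in DMEM gave 2 with no filter, 0 in a model of only both groups, 0 with total counts, and 0 to 1 with a library left out. The 2 h against the 4 h group gave 2 with total counts, 3 with no fold limit and 1 to 2 with a library left out, and both inhibitors against CM gave 5 with no fold limit.

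With the replicate block, the 2 h against the 4 h group gave 2 called members (Nlrp1b, -0.54), where only 2 pairs exist and the numbers are not known to pair the samples, and ruxolitinib in CM gave 745 genes in place of 412. The block gave Il18 a called interaction of 1.28 and changed no other call of a member than those given here and for Mefv. The best match of each of the 16 libraries had its own number. The interaction gave 51 genes, 349 with no filter, 444 with the block, 234 with DESeq2, 142 at an adjusted p under 0.1, 90 with total counts and 17 to 114 with a library left out. Ruxolitinib in CM gave 685 genes with no filter and 243 at the lowest with a library left out. With no fold limit, IKK-16 added gave 1778 genes in place of 957, both inhibitors 2857 in place of 1575, and 2 h 4726 in place of 2883. With total counts, both inhibitors against CM had 68.1% higher calls in place of 51.9%.

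Sign changes were all of values that were not called, some of them wide. With a library left out, Nlrp3 ranged from -0.17 to 0.061 for ruxolitinib in CM and from -0.083 to 0.11 for 2 h, where total counts gave -0.050. For 2 h, Mefv ranged from -0.62 to 0.17 and Gsdmd from -0.063 to 0.021, with 0.00195 in a model of only both groups. In DMEM with ruxolitinib, Mefv ranged from -0.57 to 0.69, Nlrp1b from -0.14 to 0.071, Il1b from -1.35 to 0.21, Ninj1 from -0.44 to 0.055 and Il18 from -0.32 to 0.026. In the interaction, Mefv ranged from -0.78 to 0.48, Casp1 from -0.070 to 0.20, Aim2 from -0.12 to 0.059 and Il1b from -0.090 to 1.46. Il1a ranged from -0.14 to 0.30 for ruxolitinib in CM. The cause of these changes was not tested. Mefv had as few as 15 counts in a library without CM and at least 376 in those of the 2 h comparison, and the part of depth was not tested.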
